A study of Mus musculus with 2 samples.

Results

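The 32 genes described here belong to glycolysis and to the response to low oxygen, and were followed across the cell types of the mouse skin wound. They were chosen by name, and all 32 were found among the 31053 genes of the count tables. Aldoa has a second row in the tables, which held 0 UMIs in the main classes. The genes comprise 15 glycolytic enzymes and 17 others, which are 2 transporters of glucose and lactate, 3 regulators of flux, 3 genes of mitochondria and their removal, 3 genes of oxygen sensing and 6 further hypoxia targets. The samples are 2 single-cell RNA libraries of back-skin wounds collected 5 days after wounding, from C57BL/6 mice of 7 to 9 weeks labelled Mrc1-DTR, which received either PBS (PBS library) or diphtheria toxin (DTX library). In Mrc1-DTR mice the promoter of Mrc1, which encodes CD206, drives the receptor for the toxin, so that cells expressing Mrc1 are the ones exposed to killing. In the methods of the study the controls are wild-type animals that received the toxin, whereas the labels give PBS and the transgene, and the libraries are called by their labels here. The text of the study also gives the cell numbers of the groups the other way round from the files. The direction of every DTX over PBS ratio follows the labels, and the cell types held by each library are set beside the study below. Live cells of 3 mice were pooled in each group, with 1 library per group, so that no difference has a replicate check and all intervals (95%) cover counting error only.

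Glycolysis splits glucose into pyruvate through a fixed series of enzymes, from hexokinase (Hk1, Hk2) to pyruvate kinase (Pkm), and lactate dehydrogenase (Ldha) turns pyruvate into lactate. When oxygen is low, the prolyl hydroxylases encoded by Egln1 and Egln3 no longer mark HIF1A for destruction. The HIF1 complex then binds DNA at sites that often hold the letters ACGTG, the only ones searched here. It induces many of these enzymes, the lactate exporter Slc16a3 (MCT4), the mitophagy gene Bnip3 and Egln3 itself. Neutrophils are known to rely on glycolysis and to hold few mitochondria.

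The promoters of Slc16a3, Hk2, Egln3 and Adm are shown because the levels of these genes are described class by class below. Each is printed 5′ to 3′ on the strand of the gene, with ACGTG, or CACGT where the letters lie on the opposite strand, in capitals (300 bases around the start, RefSeq, GRCm38.p6).
Slc16a3: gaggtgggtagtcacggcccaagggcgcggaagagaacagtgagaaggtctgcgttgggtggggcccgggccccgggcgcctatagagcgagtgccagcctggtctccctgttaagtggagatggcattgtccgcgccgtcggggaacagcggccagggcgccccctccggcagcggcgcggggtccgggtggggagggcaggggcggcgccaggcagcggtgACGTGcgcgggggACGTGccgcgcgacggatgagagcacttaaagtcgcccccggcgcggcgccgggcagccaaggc
Hk2: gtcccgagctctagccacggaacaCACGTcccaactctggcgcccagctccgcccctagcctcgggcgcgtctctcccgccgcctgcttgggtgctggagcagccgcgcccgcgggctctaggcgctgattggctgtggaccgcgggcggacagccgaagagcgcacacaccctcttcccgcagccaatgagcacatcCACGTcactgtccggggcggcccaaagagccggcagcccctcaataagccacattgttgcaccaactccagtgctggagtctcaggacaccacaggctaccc
Egln3: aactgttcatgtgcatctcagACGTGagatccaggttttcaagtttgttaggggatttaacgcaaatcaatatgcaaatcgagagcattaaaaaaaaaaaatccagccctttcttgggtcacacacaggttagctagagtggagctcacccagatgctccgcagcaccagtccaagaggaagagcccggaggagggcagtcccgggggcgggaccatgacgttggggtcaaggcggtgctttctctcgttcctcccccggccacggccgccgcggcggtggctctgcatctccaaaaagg
Adm: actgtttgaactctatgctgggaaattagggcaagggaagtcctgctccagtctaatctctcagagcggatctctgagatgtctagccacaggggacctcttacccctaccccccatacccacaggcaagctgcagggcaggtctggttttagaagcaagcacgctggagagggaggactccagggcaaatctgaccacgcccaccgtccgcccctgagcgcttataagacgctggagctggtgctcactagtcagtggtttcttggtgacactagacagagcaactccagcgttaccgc
The Slc16a3 promoter (plus strand, chr11:120948817-120949116) held 2 matches. The Hk2 promoter (minus strand, chr6:82774405-82774704) also held 2, and that of Egln3 (minus strand, chr12:54203825-54204124) held 1. The promoter of Adm (plus strand, chr7:110627407-110627706) held 0, which says only that these letters are not in this window. Of the 30 genes with a promoter in the table, where Ero1l is listed as Ero1a, 22 held the letters on either strand at 1 start or more (73.3%), against 21.8% of all 27025 genes. Bnip3l and Ndrg1 had no entry. The genes were chosen by name and include known hypoxia targets, so that their higher share is no result apart from that choice. The list of all genes was not limited to genes found in the wound, and a gene with more starts had more windows searched. Among the enzymes 10 of 15 held the letters, and among the other genes 12 of 15. The letters are also part of the E-box CACGTG, which other factors bind, and 5 of these genes held a full E-box. A match is a description of sequence and not a measured binding site.

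The PBS library held 12058 cells with 105511870 UMIs (unique molecular identifiers, each marking 1 captured RNA molecule) and the DTX library 11031 cells with 81858751 UMIs. After a minimum of 500 genes, a limit of 6% mitochondrial UMIs and removal of likely doublets, 7944 and 6613 cells remained. The libraries shared 37 cell barcodes, carried by 24 and 22 kept cells, and without these cells the 138 ratios past 1.5-fold in the comparisons of the 4 main classes were all still past it. Clusters were named from markers, and 10 of 10 markers were raised in macrophage-like, neutrophil-like and fibroblast-like clusters and 10 to 12 of 12 in epithelial-like clusters, the keratinocytes. Macrophage-like cells numbered 1704 and 4446 in the PBS and DTX libraries, neutrophil-like cells 129 and 456, fibroblast-like cells 3066 and 657 and epithelial-like cells 2066 and 235. The library labelled DTX thus held more macrophage-like cells, and fewer fibroblast-like and epithelial-like cells, than the one labelled PBS. The study reports a larger share of immune cells, and fewer fibroblasts and epithelial cells, in its depleted wounds than in its controls. Mrc1 itself was at 492 CPM (UMIs of a gene scaled to the same total in every class) and 428 CPM in macrophage-like cells. Neutrophil-like cells were shallow, with medians of 1229 and 1908 UMIs per cell, against 4715 to 16070 in the other 3 classes. Their medians of 609 and 703 genes per cell lay near the minimum of 500, against 1638.5 to 3181 in the other 3. The gene limit thus bears most on this class. All levels are in CPM, from the pooled UMIs of a class, and as 3′ counting gives 1 UMI per molecule whatever the transcript's length, no length correction was made. Pairs of values give the PBS library first.

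The genes fell into those that every class used and those that few classes used. Gapdh, Pkm, Ldha and Aldoa, enzymes of the middle and end of the pathway, were at 191 CPM or more in all 10 classes of both libraries. Car9, a carbonic anhydrase of the cell surface, and the muscle phosphofructokinase Pfkm were at 14.1 CPM or less in all of them. Between these lay genes that stood out in a class. They were Slc16a3 in neutrophil-like cells, Hk2 and the vasodilating peptide gene Adm in fibroblast-like cells, Mxi1, which encodes a MAX-binding repressor, in macrophage-like cells, the platelet phosphofructokinase Pfkp in dendritic-like cells (340.0 and 325 CPM), and Ero1l, an oxidase of the endoplasmic reticulum, in mast-like cells (812 and 707 CPM, from 33 and 18 cells).

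**Figure D1:**
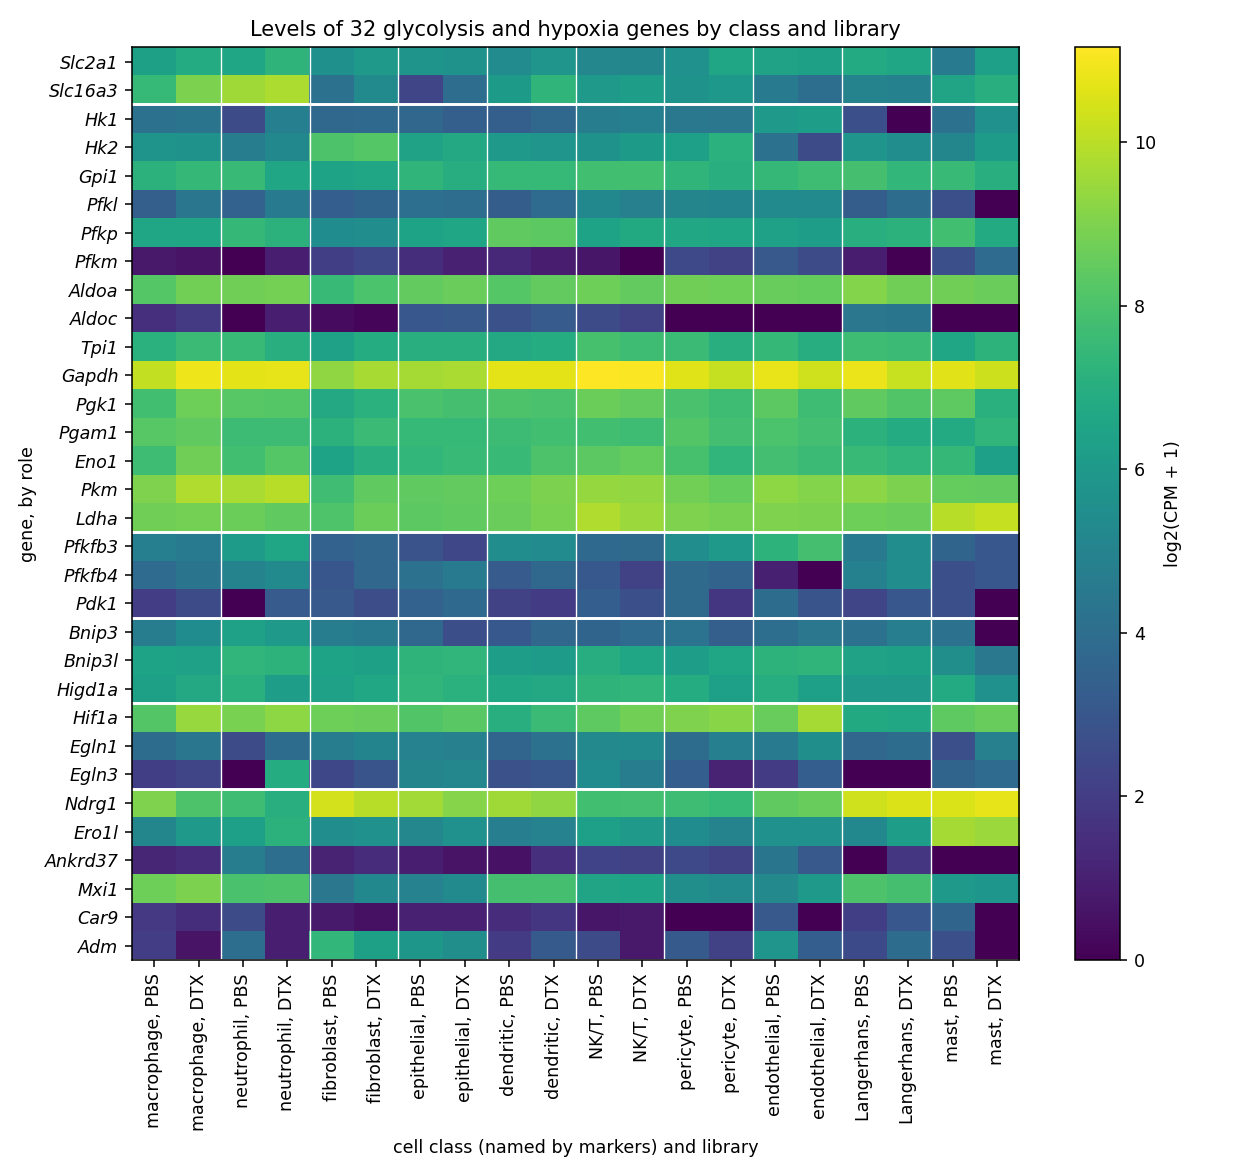
Level of each of the 32 genes (rows, by role) in each of 10 cell classes of the PBS and DTX libraries (columns), as log2(CPM + 1). Gapdh is high in every column, Slc16a3 is highest in neutrophil-like cells, Hk2 and Adm in fibroblast-like cells, and Egln3 goes from 0 to 118 CPM in neutrophil-like cells.

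The sum of the 15 enzymes differed between the main classes. In the PBS library it was 2149 (2134 to 2165) CPM in fibroblast-like, 2919 (2899 to 2939) in epithelial-like, 3523 (3483 to 3564) in macrophage-like and 4669.9 (4372 to 4983) in neutrophil-like cells. In the DTX library fibroblast-like and epithelial-like cells were again lowest, at 2875 (2841 to 2909) and 3021 (2967 to 3076) CPM, but macrophage-like cells, at 5409 (5383 to 5435), were above neutrophil-like cells, at 4759 (4631 to 4890.0). Within each library the intervals of these 4 classes did not overlap, which concerns counting error of pooled UMIs only. In the PBS library the quartiles of the enzyme share of a cell's UMIs were 0.122% and 0.224% in fibroblast-like and 0.183% and 0.332% in epithelial-like cells. They were 0.204% and 0.402% in macrophage-like and 0.241% and 0.683% in neutrophil-like cells, so that the ranges of neighbouring classes overlapped. NK/T-like cells were highest of all classes in the PBS library, at 5866 (5749 to 5985) CPM. In the DTX library they were at 5467 (5346 to 5591) CPM, which overlapped macrophage-like cells, with a log2 ratio over them of 0.0156 (−0.0175 to 0.0484), and of −0.11 (−0.15 to −0.0643) without Gapdh.

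Genes of respiration gave another order. The sum of 22 genes of the tricarboxylic acid cycle and the respiratory chain was lowest in neutrophil-like cells in both libraries, at 2448 and 1919 CPM. It was 3791 and 4138 CPM in macrophage-like, 2912 and 3307 in fibroblast-like and 4304 and 4678 in epithelial-like cells. In neutrophil-like cells the enzyme sum was above the respiration sum in both libraries, and in fibroblast-like and epithelial-like cells below it in both. In macrophage-like cells it was below in the PBS and above in the DTX library.

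**Figure D2:**
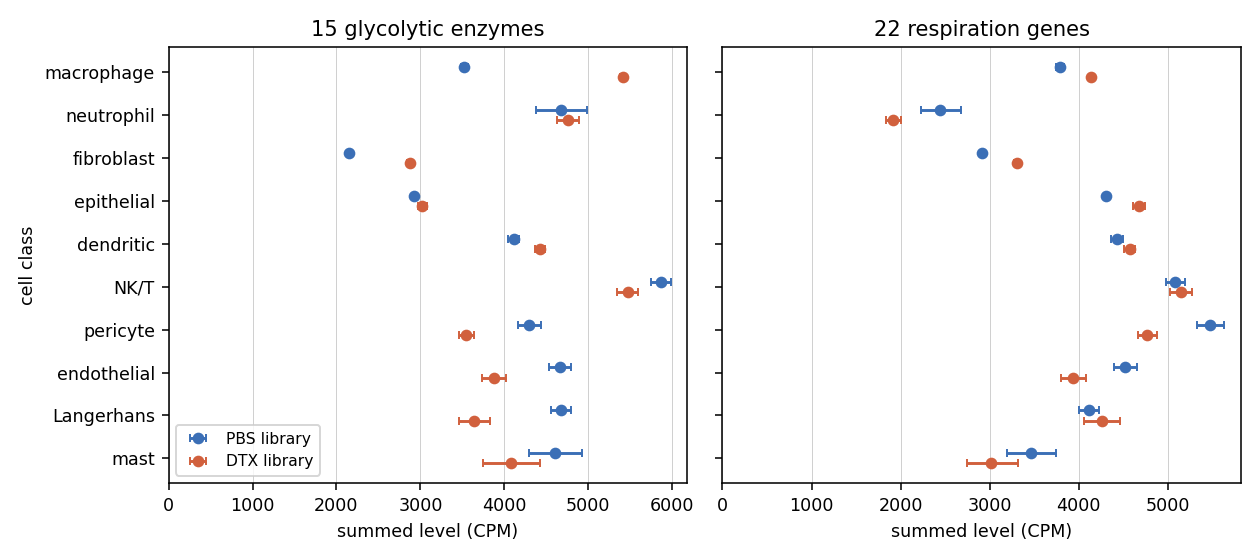
Summed level in CPM of 15 glycolytic enzymes and of 22 respiration genes in each cell class of the PBS and DTX libraries, with 95% Poisson intervals for counting error only. The enzyme sum of macrophage-like cells is 3523 and 5409 CPM, and neutrophil-like cells are lowest for the respiration genes, at 2448 and 1919 CPM.

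Neutrophil-like cells were first set against macrophage-like cells of the same library. The log2 ratio of the enzyme sum was 0.41 (0.31 to 0.50) in the PBS library and −0.18 (−0.22 to −0.14) in the DTX library, but scaled by the median gene the latter turned to 0.39, as the median gene lay 0.58 lower in neutrophil-like cells of that library and 0.21 lower in the PBS library. The respiration sum had ratios of −0.63 and −1.11, lower than those shifts. Genes were counted if both groups together held 50 or more UMIs. Of these, 10 of 25 were higher by a ratio of at least 1.5 and 6 lower in the PBS library, where 21.3% of all genes were higher and 40.4% lower. In the DTX library 8 of 30 were higher and 6 lower, where 14.2% and 49.4% of all genes were. Scaled by the median gene, 15 were higher and 4 lower in the PBS library, with 26.5% and 33.4% of all genes, and 15 and 1 in the DTX library, with 25.8% and 27.6%. Without removal of doublets 7 of 30 genes, in place of 14, were past the ratio in the DTX library. The share of all genes in that setting is not given.

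Slc16a3, which exports lactate, was highest in neutrophil-like cells in both libraries. Its level there was 768 CPM (650.1 to 901) in the PBS and 883 CPM (828 to 940.1) in the DTX library. In macrophage-like cells it was 178 CPM (169 to 187) and 503 CPM (495 to 511). It was at 17.7 and 39.0 CPM in fibroblast-like and 3.97 and 14.9 in epithelial-like cells, so that the classes kept 1 order in both libraries. Neutrophil-like cells were above macrophage-like cells by 2.11 (1.86 to 2.36) and 0.81 (0.72 to 0.90) on the log2 scale. Macrophage-like cells were uneven, and their cluster 5, described below, was at 591 and 644 CPM, from 81 and 620 cells. With every cell thinned to 1000 UMIs, 55.0% (45.2 to 64.6) of 109 and 53.1% (48.4 to 57.8) of 452 neutrophil-like cells held a UMI (60.5% and 75.4% unthinned). The thinned share was 13.1% and 36.5% in macrophage-like and 0.339% and 2.15% in epithelial-like cells. Macrophage markers, among them Lyz2, were at 25.7% and 30.1% of their macrophage level in neutrophil-like cells, and the part of this RNA in the Slc16a3 level was not tested.

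Other genes also had higher levels in neutrophil-like than in macrophage-like cells. Pfkfb3 and Pfkfb4 make the sugar phosphate that activates phosphofructokinase. Pfkfb3 was at 71.7 and 93.6 CPM in neutrophil-like and 26.9 and 22.2 in macrophage-like cells, though endothelial-like cells had more, at 148 and 234 CPM. Pfkfb4 was at 30.7 and 38.2 CPM against 14.1 and 18.5, from 6 and 42 UMIs in neutrophil-like cells. Bnip3l, which marks mitochondria for removal, was at 164 and 148 CPM against 87.0 and 81.4, and Ero1l at 76.8 and 144 against 34.3 and 62.3. Ankrd37, a HIF1 target with ankyrin repeats, was at 25.6 and 15.5 CPM against 1.32 and 1.66, from 5 and 17 UMIs. In the PBS library Ankrd37 had too few UMIs to be counted, and the interval of Pfkfb4 in neutrophil-like cells, 30.7 CPM (11.3 to 66.9), reached the macrophage level.

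Fewer genes were lower there in both. Pgam1, the phosphoglycerate mutase, was at 199.7 and 201 CPM against 303 and 345 in macrophage-like cells. The stress-response gene Ndrg1 was at 205 and 130.0 CPM against 513 and 262, and Mxi1 at 246 and 262 against 413 and 494. Once scaled by the median gene, Ndrg1 alone of these 3 was lower past the ratio in the PBS library and none was in the DTX library. The glucose transporter Slc2a1 was at 97.3 and 150.0 CPM in neutrophil-like, 79.1 and 114 in macrophage-like, 47.0 and 63.4 in fibroblast-like and 54.2 and 50.5 in epithelial-like cells.

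Egln3, the prolyl hydroxylase that HIF induces, was not detected in neutrophil-like cells of the PBS library and was higher in those of the DTX library than in any other class. It had 0 UMIs in 129 cells, where 3 UMIs over the class would be 15.4 CPM, and 130 UMIs in 456 cells, or 118 CPM (98.7 to 140.3). With 3 UMIs taken for the PBS library, the level was 7.69-fold higher in the DTX library. This value leaves out the counting error of the DTX UMIs. The UMIs lay in 95 cells, 69 with 1 and 26 with 2 or more, and the most in 1 cell was 4. After thinning, 11.1% (8.32 to 14.3) of 452 DTX cells held a UMI and 0 of 109 PBS cells (upper limit 3.33%), against 0.453% of macrophage-like cells of the DTX library. The next classes were NK/T-like cells at 42.4 and 25.4 CPM and epithelial-like cells at 32.9 and 34.5 CPM. Epithelial markers in neutrophil-like cells were at 4.37% and 0.903% of their level in epithelial-like cells, and their part in the Egln3 value was not tested.

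**Figure D3:**
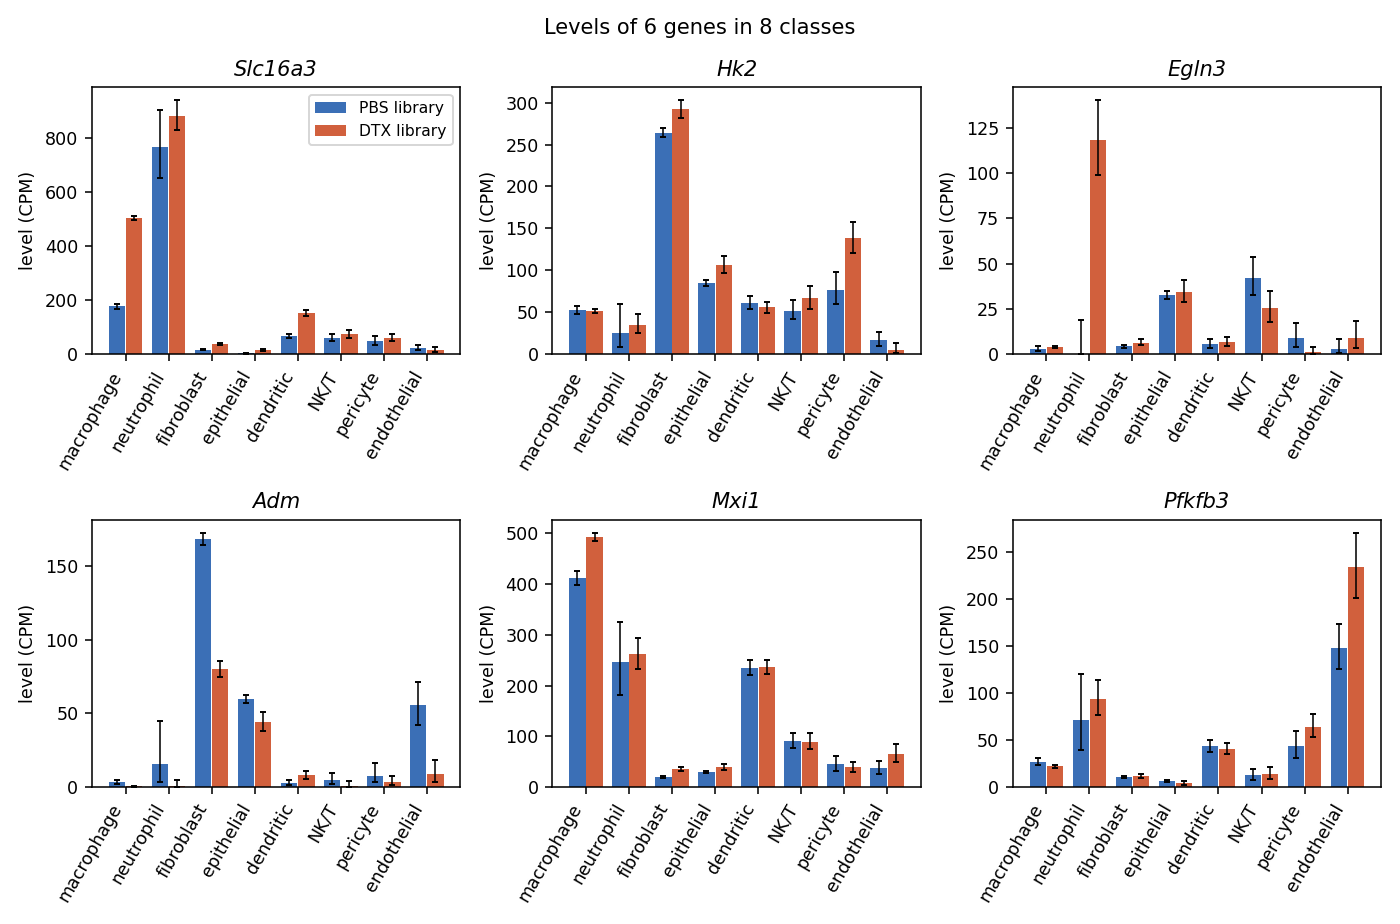
Level in CPM (bars, with 95% Poisson intervals for counting error only) of Slc16a3, Hk2, Egln3, Adm, Mxi1 and Pfkfb3 in 8 cell classes of the PBS and DTX libraries. Slc16a3 is at 768 and 883 CPM in neutrophil-like cells, Hk2 at 264 and 292 CPM in fibroblast-like cells, and Egln3 at 118 CPM in neutrophil-like cells of the DTX library.

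Fibroblast-like cells had low enzyme levels but the highest Hk2, Ndrg1 and Adm of the 8 classes with at least 50 cells in both libraries. The log2 ratio of their enzyme sum to macrophage-like cells was −0.71 (−0.73 to −0.69) in the PBS and −0.91 (−0.93 to −0.89) in the DTX library. The sum was uneven within the class, at 1621 and 2461 CPM in fibroblast cluster 1 and 3023 and 3143 in cluster 3. Cluster 3 was thus above epithelial-like cells, at 2919 and 3021 CPM. Past the ratio, 15 of 30 genes were lower and 6 higher in the PBS library, where 24.6% of all genes were lower and 37.2% higher. In the DTX library 19 of 32 were lower and 6 higher, where 27% and 35.1% of all genes were. The lower genes included enzymes of the second part of the pathway, among them Gapdh (636 and 827 CPM against 1116 and 1852 in macrophage-like cells), Pgk1 (106 and 138 against 221 and 413), Eno1 (88.1 and 129 against 207 and 432) and Pkm (216 and 349.6 against 508 and 920.1).

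Hk2, the inducible hexokinase that traps glucose in the cell, went against most of the enzymes. In each library 2 enzymes, Hk2 among them, were higher past the ratio, and 10 of 14 (PBS) and 11 of 15 (DTX) were lower. Hk2 was at 264 CPM (259 to 269.6) and 292 CPM (281 to 303) in fibroblast-like cells. Epithelial-like cells followed at 84.8 and 107 CPM, macrophage-like cells at 53.0 and 52.1 and neutrophil-like cells at 25.6 and 35.5. The ratio of fibroblast-like to macrophage-like cells was 2.30 (2.18 to 2.46) and 2.46 (2.40 to 2.58) on the log2 scale. After thinning, 21.3% and 22.6% of fibroblast-like cells held a UMI, against 5.30% and 4.84% of macrophage-like cells. The constitutive hexokinase Hk1 was at 12.4 and 13.0 CPM in fibroblast-like and 16.7 and 18.8 in macrophage-like cells.

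Ndrg1 was at 1365 and 1002 CPM in fibroblast-like, 769 and 565 in epithelial-like and 513 and 262 in macrophage-like cells. Adm was at 168 and 79.8 CPM in fibroblast-like and 59.5 and 44.0 in epithelial-like cells, but at 3.12 and 0.521 in macrophage-like cells. Mxi1 had the reverse order, at 20.3 and 36.1 CPM in fibroblast-like and 29.5 and 39.1 in epithelial-like against 413 and 494 in macrophage-like cells.

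Epithelial-like cells had an enzyme sum with a log2 ratio to macrophage-like cells of −0.27 (−0.29 to −0.25) in the PBS and −0.84 (−0.87 to −0.81) in the DTX library, while their respiration sum had ratios of 0.18 and 0.18. Past the ratio, 10 of 31 genes were higher and 6 lower in the PBS library, where 34.7% of all genes were higher and 29.9% lower. In the DTX library 7 of 31 were higher and 14 lower, where 29.1% and 35.5% of all genes were. Higher in both libraries were Hk2, Bnip3l (152 and 161 CPM), Egln3, Adm, the brain-type aldolase Aldoc (7.13 and 7.73 CPM against 1.92 and 2.73) and Pdk1, a kinase that keeps pyruvate from the mitochondrial route (10.3 and 13.1 against 3.12 and 4.85). Lower in both were Slc16a3, Mxi1, Pgam1, Pfkfb3 (6.32 and 4.12 CPM) and Bnip3 (12.4 and 5.41 CPM against 24.7 and 41.5).

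The DTX library was then set against the PBS library within each class. In macrophage-like cells the enzyme sum was higher in the DTX library by 0.62 (0.60 to 0.64) on the log2 scale, and by 0.56 without Gapdh, while the respiration sum was higher by 0.13 (0.11 to 0.14). Of 30 genes with enough UMIs, 10 were higher and 1 lower past 1.5-fold, where 6.59% of all genes were higher and 7.63% lower. The median log2 ratio of the counted genes was 0.38 and that of all genes 0.0632. Slc16a3 was at 178 and 503 CPM, a log2 ratio of 1.498 (1.43 to 1.58). Hif1a, the oxygen-regulated subunit itself, was at 291 and 685 CPM, a ratio of 1.23 (1.17 to 1.30). Both genes were thus more than 2-fold higher in the DTX library over the class as a whole. The clusters of the class are given below, and for Slc16a3 some of them had intervals that reached 0.

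Of the enzymes, 6 of 14 were past the ratio in these cells, all higher. Eno1, the enolase, was at 207 and 432 CPM (1.06), the phosphoglycerate kinase Pgk1 at 221 and 413 (0.90) and Pkm at 508 and 920.1 (0.86). Gapdh was at 1116 and 1852 CPM (0.73), Aldoa at 292 and 441 (0.59) and the liver phosphofructokinase Pfkl at 9.47 and 19.9 (1.00). Ldha and Hk2, at the ends of the pathway, were not past it, at 422 and 448 CPM and 53.0 and 52.1 CPM. Ero1l (34.3 and 62.3 CPM, 0.84) and Bnip3 (24.7 and 41.5 CPM, 0.72) were also higher. The gene lower past the ratio was Ndrg1, at 513 and 262 CPM (−0.97, −1.02 to −0.91).

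In neutrophil-like cells the enzyme sum differed by 0.0273 (−0.0744 to 0.13), and by 0.14 scaled by the median gene, which lay 0.12 lower in the DTX library. The respiration sum had a ratio of −0.35 (−0.49 to −0.20). Of 21 genes with enough UMIs, 3 were higher and 3 lower past the ratio, where 13.9% of all genes were higher and 20.2% lower. Egln3, among the higher genes, held 0 and 130 UMIs and so was counted through the DTX library alone. The class held 195292 and 1099958 UMIs, so that the DTX library had more weight in which genes were counted. The median log2 ratio of the counted genes was 0.0569, with 3 UMIs taken for Egln3 in the PBS library, and that of all genes −0.11. Scaled by the median gene, the counts of higher and lower genes were 3 and 2, with 17.4% and 14.3% of all genes. The other 11 genes had too few UMIs, 5 of them enzymes. With a minimum of 200 UMIs 0 of 10 genes were past the ratio, and the share of all genes under that minimum is not given.

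Apart from Egln3, the higher genes were Ero1l, at 76.8 and 144 CPM (0.89, 0.14 to 1.77), and Slc2a1, at 97.3 and 150.0 CPM, with a ratio of 0.62 (−0.0641 to 1.39) whose interval reached 0. Lower were the isomerase Gpi1, at 189 and 97.3 CPM (−0.95, −1.51 to −0.38), Higd1a, a protein of the inner mitochondrial membrane, at 133 and 76.4 CPM (−0.79, −1.45 to −0.11), and Ndrg1, at 205 and 130.0 CPM (−0.65, −1.17 to −0.11). Slc16a3 was not past the ratio (0.20, −0.0487 to 0.46). Macrophage markers, among them Lyz2, were at 25.7% and 30.1% of their macrophage level in neutrophil-like cells. In CPM these markers were at 4511 and 3684 there, and at 17571 and 12257 in macrophage-like cells. The neutrophil markers themselves were at 44584.5 and 95877 CPM in neutrophil-like cells. Fibroblast markers there were at 2.71% and 0.611% of their level in fibroblast-like cells and epithelial markers at 4.37% and 0.903% of theirs. The part of this RNA in the ratios was not tested.

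**Figure D4:**
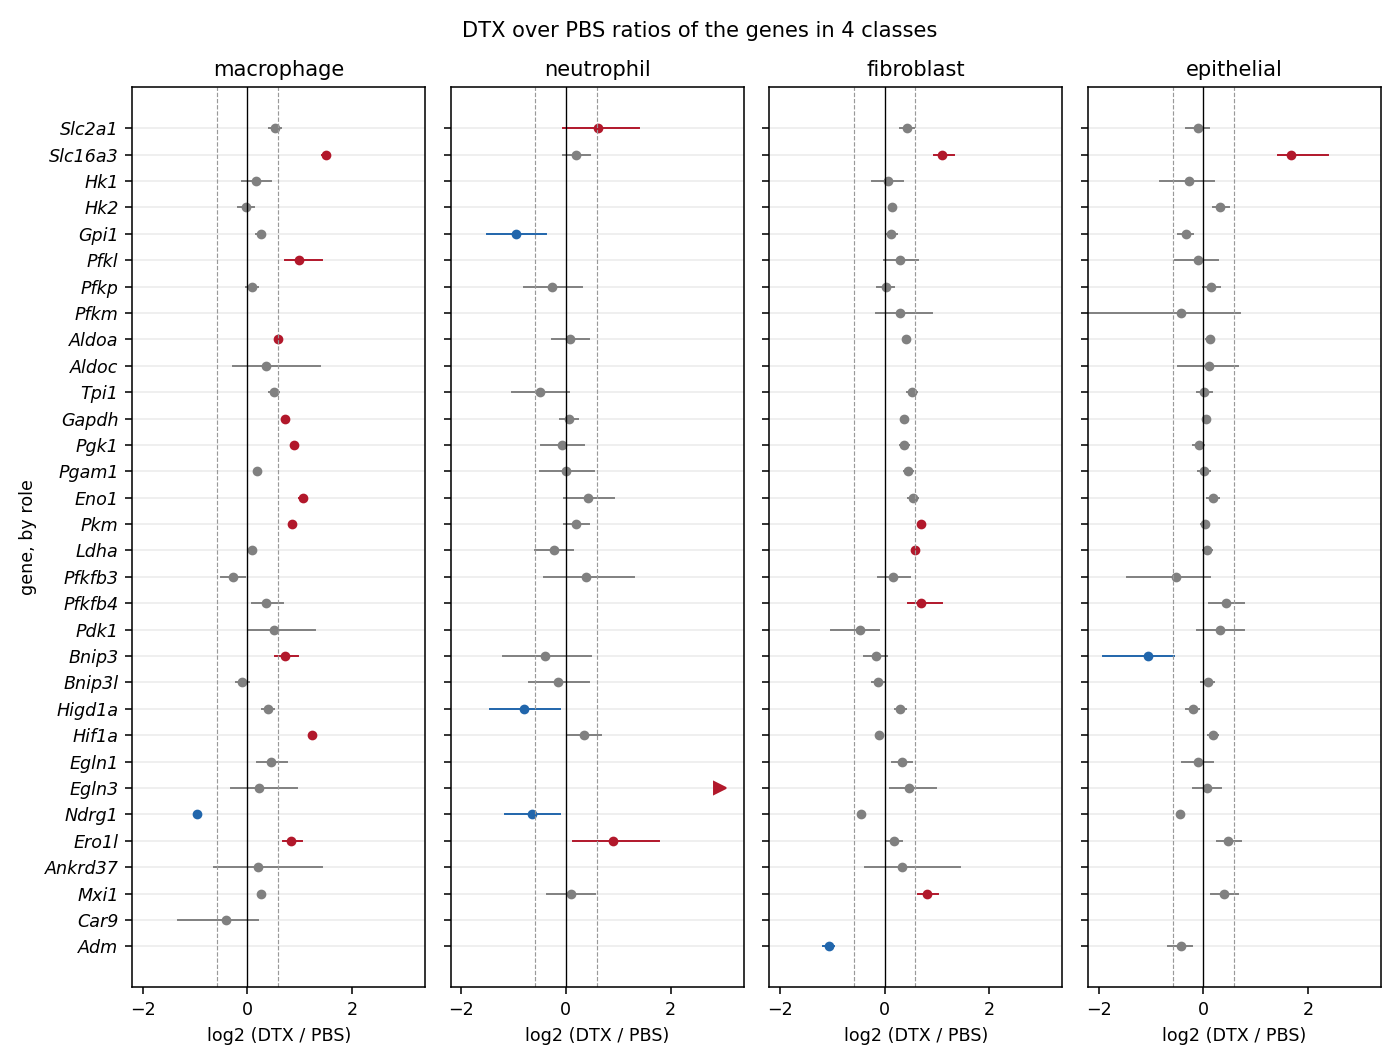
Log2 ratio of the DTX over the PBS library for each gene in 4 classes, with 95% intervals for counting error only, dashed lines at 1.5-fold, red for genes higher and blue for genes lower past it. The triangle is the ratio of Egln3 in neutrophil-like cells with 3 UMIs taken for the PBS library (7.69-fold). In macrophage-like cells 10 of 30 genes are red and in epithelial-like cells 1 of 30.

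In fibroblast-like cells the enzyme sum was higher in the DTX library by 0.42 (0.40 to 0.44) and the respiration sum by 0.18, where the median gene lay 0.13 higher, and scaled by it the enzyme sum was 0.29 higher. Of 30 genes, 5 were higher and 1 lower past the ratio, where 7.3% of all genes were higher and 3.98% lower. The median log2 ratio of the counted genes was 0.31 and that of all genes 0.12. Scaled by the median gene, the counts of higher and lower genes were 2 and 2, with 5.09% and 5.26% of all genes. Pkm was at 216 and 349.6 CPM (0.70), Ldha at 269 and 405 (0.59) and Pfkfb4 at 6.91 and 11.8 (0.70). Adm was lower, at 168 CPM (164 to 173) and 79.8 CPM (74.3 to 85.6), a ratio of −1.07 (−1.18 to −0.97). The genes that are no enzymes had a median ratio of 0.23, yet their sum was lower, at 2329 and 1931 CPM, of which Ndrg1 made up 1365 and 1002 CPM.

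Slc16a3 (17.7 and 39.0 CPM, 1.09) and Mxi1 (20.3 and 36.1 CPM, 0.80) were the other higher genes, and both had far higher levels in macrophage-like cells. Macrophage markers in fibroblast-like cells were at 0.618% and 3.02% of their level in macrophage-like cells. Slc16a3 was at 9.98% and 7.75% of its macrophage level and Mxi1 at 4.91% and 7.31%. The part of macrophage RNA in these ratios was not tested.

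In epithelial-like cells the enzyme sum differed by 0.0494 (0.0214 to 0.0773), and by −0.0317 scaled by the median gene. Of 30 genes, 1 was higher and 1 lower past the ratio, where 8.49% of all genes were higher and 5.25% lower. The median log2 ratio of the counted genes was 0.046 and that of all genes 0.0754. The higher gene was Slc16a3, at 3.97 and 14.9 CPM from 113 and 58 UMIs. Macrophage markers in these cells were at 0.384% and 3.32% of their macrophage level and Slc16a3 at 2.23% and 2.97% of its macrophage level, and their part in the ratio was not tested. The lower gene was Bnip3, at 12.4 and 5.41 CPM from 353 and 21 UMIs (−1.06, −1.91 to −0.56).

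In the smaller classes the enzyme sum had ratios of 0.11 in dendritic-like, −0.10 in NK/T-like, −0.28 in pericyte-like and −0.27 in endothelial-like cells. Dendritic-like cells had 5 of 28 genes higher and 0 lower past the ratio, where 4.96% of all genes were higher and 4.5% lower. Scaled by the median gene the counts were 2 and 0, with 3.73% and 5.35% of all genes. Before that scaling the higher genes included Slc16a3 (67.1 and 155 CPM) and Hif1a (126 and 194 CPM). Slc16a3 and Adm were the 2 still past the ratio after that scaling, and Hif1a, at 0.62 (0.46 to 0.78) unscaled with a shift of 0.0553, was not. Macrophage markers in dendritic-like cells were at 25.7% and 25.2% of their macrophage level and Slc16a3 at 37.8% and 30.7% of its macrophage level. The part of macrophage RNA in the Slc16a3 ratio was not tested. NK/T-like cells had 0 of 23 higher and 1 lower, Egln3, where 5.78% and 3.81% of all genes were. Pericyte-like cells, which wrap small vessels, had 3 of 23 higher and 2 lower, where 8.46% and 7.57% of all genes were, with Hk2 at 77.2 and 138 CPM. Endothelial-like cells had 4 of 22 higher and 3 lower, where 8.76% and 9.3% were. In these cells Hif1a was at 383 and 796 CPM (1.05, 0.87 to 1.24), Pfkfb3 at 148 and 234 CPM (0.66, 0.35 to 0.98) and Adm at 55.3 and 8.96 CPM (−2.50, −4.00 to −1.49). Fibroblast markers in endothelial-like cells were at 3.35% and 0.237% of their level in fibroblast-like cells, and their part in the Adm ratio was not tested. Under both scalings Hif1a was higher past the ratio in macrophage-like and endothelial-like cells. It was at 415 and 387 CPM in fibroblast-like and 281 and 319 in epithelial-like cells.

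The differences were uneven within the classes. In fibroblast cluster 1, led by Ctsk, Coch and Mmp3, the enzyme sum was 1621 and 2461 CPM (2165 and 313 cells), a log2 ratio of 0.60 (0.57 to 0.64). In fibroblast cluster 3, led by Mfap5, Sfrp2 and Prg4, it was 3023 and 3143 CPM (901 and 344 cells), a ratio of 0.0562 (0.0309 to 0.0813). Adm was at 198 and 30.1 CPM in cluster 1 and 118 and 112 in cluster 3, with ratios of −2.68 (−3.002 to −2.45) and −0.0748 (−0.21 to 0.0567). The enzyme sum was thus higher and Adm lower in the DTX library past 1.5-fold in cluster 1 and not in cluster 3. Hif1a was at 439 and 297 CPM in cluster 1 and 375 and 446 in cluster 3, with ratios of opposite sign. As the clusters held different shares of the class in the libraries, levels and composition cannot be told apart in the ratio of the class.

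Macrophage-like cells were clustered again, and the 7 resulting clusters are given by number and leading genes. Clusters 1 (Hp, Vcan) and 2 (Arg1, Cxcl3, Spp1) held 1200 and 991 DTX cells but 37 and 4 PBS cells, so that no ratio was taken. Their enzyme sums in the DTX library were 5701 and 7616 CPM, the highest of the 7. In cluster 0 (Ctsk, Acp5) the sum was 3363 and 4597 CPM, in cluster 3 (Ccl7, Folr2) 3249 and 3966, in cluster 5 (Il1r2, Il1b) 3941 and 4882 and in cluster 6 (Cxcl10, Ifit1) 3002 and 4238, with ratios of 0.45, 0.29, 0.31 and 0.50. In cluster 4 (Hspa1a, Ccl8) it was 3722 and 3717 CPM, a ratio of −0.00185 (−0.0509 to 0.0471). Without clusters 1 and 2 the ratio of the class was 0.34 in place of 0.62. Hif1a was higher in the DTX library in all 5 clusters compared, by 0.21 in cluster 0 to 1.51 in cluster 6. Pgk1 had ratios of 0.43, 0.31, 0.31 and 0.54 in clusters 0, 3, 5 and 6 and −0.26 (−0.47 to −0.0541) in cluster 4. For Bnip3 the intervals reached 0 in all 5 clusters. Slc16a3 was higher by 1.08 and 1.72 in clusters 3 and 6, and its intervals reached 0 in clusters 0, 4 and 5. In cluster 1 of the DTX library it was at 782 CPM, next to 883 CPM in neutrophil-like cells. In cluster 5 it was at 591 and 644 CPM, next to 768 and 883 CPM in neutrophil-like cells. As in fibroblast-like cells, levels and composition cannot be told apart in the ratios of the class.

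**Figure D5:**
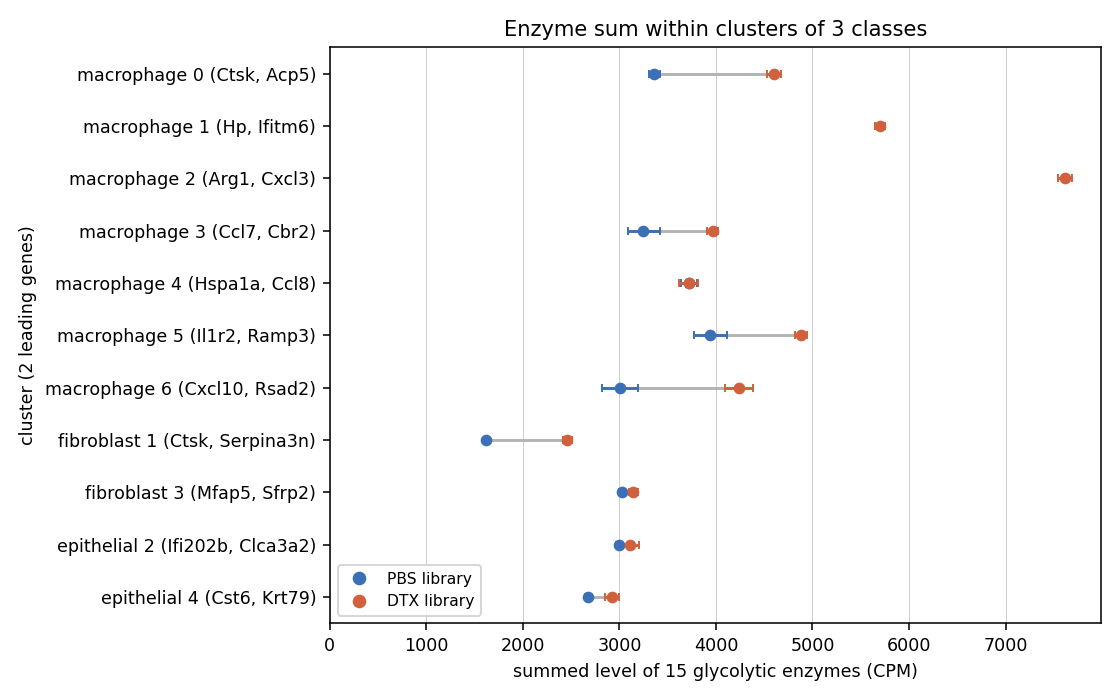
Summed level in CPM of the 15 glycolytic enzymes within clusters of macrophage-like, fibroblast-like and epithelial-like cells of the PBS and DTX libraries, with 95% Poisson intervals for counting error only. Fibroblast cluster 1 is at 1621 and 2461 CPM and fibroblast cluster 3 at 3023 and 3143 CPM.

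A further list of 49 genes of the same pathways was counted in the same way, DTX against PBS. In macrophage-like cells 4 of 38 were higher past the ratio and 4 lower (all genes 6.59% and 7.63%), with Bhlhe40, a HIF-induced repressor, at 111 and 179.8 CPM and Hmox1, heme oxygenase, at 4139.6 and 2381 CPM. In neutrophil-like cells 2 of 15 were higher and 3 lower (all genes 13.9% and 20.2%), the lower genes being Hmox1 (2243 and 828 CPM), the cytokine Mif (845 and 499) and Vegfa, which drives vessel growth (236 and 150.0). In fibroblast-like cells 5 of 45 were higher and 2 lower (all genes 7.3% and 3.98%), with Epas1 (HIF2A) at 23.5 and 48.6 CPM. In epithelial-like cells 5 of 38 were higher and 4 lower (all genes 8.49% and 5.25%), with Vegfa at 21.3 and 39.4 CPM and Plin2, which coats lipid droplets, at 23.2 and 42.0 CPM. Of 21 respiration genes with enough UMIs, 0 passed the ratio in macrophage-like, fibroblast-like or epithelial-like cells, and in neutrophil-like cells 1 of 9 was higher and 2 were lower, beside the same shares of all genes.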

How the data were processed

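The authors ran Cell Ranger 6.1.1 (per the file headers and the submitters' notes) against mm10 and deposited raw UMI counts per gene and cell, without normalization. Whether a library joins technical replicates is not stated. Kept cells had 500 genes or more and no more than 6% mitochondrial UMIs. The study's methods also give an upper limit of 2000 genes per cell, which was applied here only as an alternative. Scrublet in scanpy 1.11.5 (anndata 0.12.19; expected rate 8%) removed 382 PBS cells (4.59%). As it called 0 DTX cells, the 575 of highest score (8%) were dropped there. Clustered without this removal, neutrophil-like cells numbered 132 and 565 (PBS and DTX), in place of 129 and 456. Macrophage-like cells numbered 1695 and 4707, in place of 1704 and 4446. Cells were clustered with Seurat 5.3.0 (SeuratObject 5.2.0, Matrix 1.6.5, R 4.3.3; 2000 variable genes less the 3 of the 32 among them, 30 components, resolution 0.2, macrophage-like cells 0.5) and named from marker lists. UMIs were summed by class and library. Ratios of single genes are log2 of CPM with 1 CPM added and those of sums are without it. Intervals are exact Poisson for levels, exact conditional binomial for ratios (without the added CPM) and Clopper-Pearson for shares. With 1 library per group no test was made, and genes holding 50 UMIs or more over both groups were counted past a ratio of 1.5. Genes past the ratio were all named for DTX over PBS in the main classes, and a selection of them in the other comparisons. Python 3.11.15, numpy 2.4.6, scipy 1.17.1, pandas 2.3.3 and matplotlib 3.10.9 were used, with seed 1, and the ratio script was tested on simulated data. The genes and lists were chosen with earlier results of these data known.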

Additional observations from a re-analysis of the deposited data

Results flagged for a closer look

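Each of the following had ratios of opposite sign in different cell classes, DTX over PBS, and with 1 library per group the difference between classes was not tested. Pgk1 was higher in macrophage-like (0.90 on the log2 scale) and lower in endothelial-like cells (−0.65). Bnip3 was higher in macrophage-like (0.72) and lower in epithelial-like cells (−1.06). Within the macrophage clusters compared, Pgk1 was lower in cluster 4 (−0.26) and at most 0.54 higher in the others. The intervals of Bnip3 in those clusters all reached 0. Egln3, with 3 UMIs taken for the PBS library, was 7.69-fold higher in neutrophil-like cells, and it was lower in NK/T-like cells (−0.72). Adm was lower in fibroblast-like (−1.07) and endothelial-like cells (−2.50) and higher in dendritic-like cells (1.19), where its level was 2.89 and 7.85 CPM. The enzyme sum was higher in macrophage-like (0.62), fibroblast-like (0.42), dendritic-like (0.11) and epithelial-like cells (0.0494), the last turning to −0.0317 when scaled by the median gene, and lower in NK/T-like (−0.10), pericyte-like (−0.28) and endothelial-like cells (−0.27).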

How the results depend on the processing

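No paired analysis was possible because each group has 1 library. With the 3 cluster settings, which were chosen after seeing the data, the enzyme ratio DTX over PBS was 0.34 in macrophage-like cells without clusters 1 and 2, and 0.60 and 0.0562 in fibroblast clusters 1 and 3. Scaled by the median gene it was 0.55 in macrophage-like, 0.14 in neutrophil-like, 0.29 in fibroblast-like and −0.0317 in epithelial-like cells. Against macrophage-like cells that scaling gave, for PBS and DTX, 0.62 and 0.39 in neutrophil-like, −0.88 and −1.02 in fibroblast-like and −0.36 and −0.78 in epithelial-like cells.

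With at most 2000 genes per cell, DTX over PBS was 0.65 (macrophage-like) and 0.52 (fibroblast-like), and the ratios to macrophage-like cells were 0.64 and −0.027 (neutrophil-like), −0.85 and −0.98 (fibroblast-like) and −0.62 (epithelial-like, PBS), as 12 epithelial-like DTX cells were left, under the minimum of 50. There Slc2a1 (0.0375), Pfkfb3 (0.0562) and Egln1 (−0.17) reversed in fibroblast-like over macrophage-like cells of the DTX library, and 88 of 100 ratios past 1.5-fold were still past it. The cause was not tested. The upper limit of 2000 genes is that of the study's methods. As the mean over cells, DTX over PBS was 0.68 in macrophage-like and 0.12 in epithelial-like cells, and the ratios to macrophage-like cells were 0.60 and −0.14 (neutrophil-like), −1.003 (fibroblast-like, DTX) and −0.23 and −0.80 (epithelial-like). Without removal of doublets, DTX over PBS was 0.44 in fibroblast-like and 0.0876 in epithelial-like cells, with ratios to macrophage-like cells of −0.68 and −0.85 (fibroblast-like) and −0.79 (epithelial-like, DTX). With 10% mitochondrial UMIs allowed, these were 0.60 (macrophage-like, DTX over PBS), −0.89 (fibroblast-like, DTX) and −0.23 and −0.78 (epithelial-like). With the 32 genes kept for clustering, the epithelial-like PBS ratio was −0.30.

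Genes past 1.5-fold in neutrophil-like cells, DTX over PBS, numbered 6 of 21. They numbered 10 of 27 with a minimum of 10 UMIs and 0 of 10 with a minimum of 200. In epithelial-like cells they numbered 2 of 30. The count was 4 of 30 with 0.1 CPM added, 1 of 30 with 10 CPM added and 1 of 27 with a minimum of 200 UMIs. With at most 2000 genes per cell they numbered 10 of 21 in place of 6 of 30 in fibroblast-like cells. Under that limit they numbered 16 of 25 in place of 25 of 32 in fibroblast-like over macrophage-like cells (DTX). Without removal of doublets they numbered 7 of 30 in place of 14 of 30 in neutrophil-like over macrophage-like cells (DTX). The shares of all genes under these settings are not given, and the number of genes counted differed between some of them. Of the 4 main classes neutrophil-like cells had the fewest UMIs, 195292 in the PBS library, which limits their values.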
